A study of Mus musculus with 66 samples.

Results

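The 6 genes described here, Slc15a2, Slco4a1, C1qtnf5, Npy, Thrsp and Tagln2, are members of a group proposed from an earlier reading of the same data, as genes whose change from day 5 to day 11 depended on genotype in ventral spinal cord progenitors. They were taken by symbol, and all 6 were found among the 24410 genes of the deposited table. The members were selected on their day 5 and day 11 values in both genotypes, and the rule also names the day 9 gates. Those values are therefore given as a description, and no test on them is read. Tests are read only between genotypes at day 7 and day 9, between day 7 and day 9, and for domains at day 7. The WT p2 and pM libraries of day 9 in these tests are also those of the gates. Tests that use them are therefore not independent of the rule, and counts of calls between gates are printed without a reading.

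Mouse embryonic stem cells were differentiated in culture and sampled every second day from day 5 to day 11 (D5, D7, D9 and D11). The cells were fixed with glyoxal, stained, and sorted as p1 (p0-p1 in the series' design), p2 and pM (pMN in the design) progenitors and by NFIA protein, the gates being NFIA negative (NFIAn) and NFIA positive (NFIAp). Polyadenylated RNA was sequenced in 66 libraries, 37 from WT and 29 from MUT cells. All cultures were plated with 10 ng/ml bFGF and had 5 µM CHIR99021 (a GSK3β inhibitor that activates Wnt signalling) from day 2, 100 nM retinoic acid with 10 nM SAG (a Smoothened agonist that activates Hedgehog signalling) from day 3, and SAG without retinoic acid from day 5. The labels name neither the gene altered in MUT nor the parental line or clone, and do not say whether replicates came from separate cultures, and the p-values below therefore cover no more than library-to-library spread, which may be technical.

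The WT groups were NFIAn at D5 (8 libraries), NFIAn at D7 (9), NFIAn at D9 (8), NFIAp at D9 (6, p2 and pM only) and NFIAp at D11 (6). The MUT groups were all NFIAn, with 9 libraries at D5, 9 at D7, 5 at D9 and 6 at D11. Of the 26 groups by domain, 15 had 3 libraries, 10 had 2, and MUT p2 at D9 had 1. WT cells of D11 were all NFIAp and MUT cells of D11 all NFIAn, so genotype and gate cannot be told apart there.

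Library depth, recovered as whole reads from the values, was 8.74 M reads in MUT D5 p2 replicate 2 and 20.3 to 30.8 M in the others. The 18 libraries of D7 replicate 3 and D9 replicates 2 and 3 stood apart by their total after the authors' normalisation (26.6 to 40.2 M against 17.8 to 25.5 M). The domain labels matched their markers: the sum of Dbx1, Dbx2 and Prdm12 was 4730 to 16098 in p1 and at most 3170 elsewhere, and the sum of Olig1, Olig2 and Nkx6-1 was 1406 to 9239 in pM and at most 695 elsewhere. The sum of Foxn4, Vsx1 and Nkx6-1 was 223 to 3264 in p2 and overlapped with pM (169 to 718). Nfia RNA was 1096 to 3639 in WT and 1014 to 2177 in MUT at D11, although the MUT cells had been sorted as NFIA negative. Cultures of this kind are bulk samples, so fewer cells of a type and less RNA per cell cannot be told apart.

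The ventral spinal cord is patterned by Hedgehog signalling into progenitor domains, each of which first makes neurons and later makes glia. NFIA is a transcription factor of the nuclear factor I family that rises as neural progenitors turn from making neurons to making glia. The 6 genes have unlike roles. Slc15a2 (PEPT2) carries di- and tripeptides into cells together with protons and is known from astroglia and kidney, and Slco4a1 (OATP4A1) is an organic anion transporter that carries thyroid hormones. C1qtnf5 is a secreted protein of the C1q and TNF related family, and Npy is the precursor of neuropeptide Y, a peptide transmitter. Thrsp (Spot 14) is a nuclear protein tied to fatty acid synthesis and is induced by thyroid hormone in liver. Tagln2 (transgelin-2) binds and bundles actin filaments.

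On GRCm38 the genes lie apart from each other, and each is annotated as protein coding. Slc15a2 is on chromosome 16 from 36750177 to 36784962 on the minus strand, and Slco4a1 on chromosome 2 from 180456245 to 180474867 on the plus strand. C1qtnf5 is on chromosome 9 from 44107245 to 44109187 and Npy on chromosome 6 from 49822710 to 49829507, both on the plus strand. Thrsp is on chromosome 7 from 97412938 to 97417730 on the minus strand, and Tagln2 on chromosome 1 from 172500047 to 172507380 on the plus strand. All 1589 exon bases of C1qtnf5 are also annotated to Mfrp on the same strand, so reads there could have been divided between the 2 symbols or dropped, and its values are uncertain in level. Mfrp reached at most 3.91 normalised counts in any library.

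Since 4 of the genes were lower in MUT at D11 and NFIA sorted the cells, the 250 bases before each RefSeq start (GRCm38.p6) were searched for the NFI core letters TTGGC on both strands. All 6 genes had a promoter entry, Slco4a1 with 2. TTGGC or its reverse complement was found 4 times before Thrsp, 2 times before Slc15a2, 2 times before Tagln2 and 1 time before C1qtnf5, whose RefSeq start is shared with Mfrp. None was found before Npy or the first start of Slco4a1, and 1 was found before the second. Of 32851 promoters, 41.5% held at least 1 such match and 2.68% held 3 or more. The full NFI site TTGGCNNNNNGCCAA, which contains the core letters, was in none of these windows and in 0.0365% of all promoters. AGGTCA, the core of nuclear receptor sites, was found only before the second start of Slco4a1 (14.0% of all promoters), and AACAAT, a Sox core, in none (9.42%). A match to these letters is a description of the sequence, not a bound site. The windows of Thrsp and Tagln2 partly overlap the GENCODE genes, which begin before the RefSeq starts, at 97417730 and 172500047. The Thrsp matches that begin 179, 78 and 38 bases before the RefSeq start, and those of Tagln2, lie inside the annotated genes. The second Slco4a1 window (180460728 to 180460977) lies wholly inside the annotated Slco4a1. That of C1qtnf5 (44101520 to 44101769) lies before the GENCODE start of C1qtnf5 at 44107245, and its match is inside Mfrp, annotated from 44101729. The windows of Thrsp, with the most matches, and Slc15a2, both far higher in WT at D11, are shown with that of Npy, which rose in both genotypes. Capitals mark TTGGC or GCCAA, and the sequences run 5′ to 3′ along the gene's strand.
Thrsp (chr7:97417551-97417800, minus strand): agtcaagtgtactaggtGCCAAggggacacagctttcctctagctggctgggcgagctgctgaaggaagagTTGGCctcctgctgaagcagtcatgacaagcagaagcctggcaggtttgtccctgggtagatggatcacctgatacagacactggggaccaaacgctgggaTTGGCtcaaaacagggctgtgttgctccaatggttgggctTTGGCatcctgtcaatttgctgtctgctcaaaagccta
Slc15a2 (chr16:36784963-36785212, minus strand): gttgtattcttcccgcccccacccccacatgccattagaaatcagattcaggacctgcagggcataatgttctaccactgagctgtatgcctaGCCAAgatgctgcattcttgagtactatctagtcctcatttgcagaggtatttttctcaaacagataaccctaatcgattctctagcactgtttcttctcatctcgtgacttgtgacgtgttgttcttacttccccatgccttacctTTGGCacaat
Npy (chr6:49822460-49822709, plus strand): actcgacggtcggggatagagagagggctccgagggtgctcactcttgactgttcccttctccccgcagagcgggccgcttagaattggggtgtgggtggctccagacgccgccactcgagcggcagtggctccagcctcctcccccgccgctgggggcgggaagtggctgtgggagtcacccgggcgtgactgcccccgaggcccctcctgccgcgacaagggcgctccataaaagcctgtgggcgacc

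**Figure D1:**
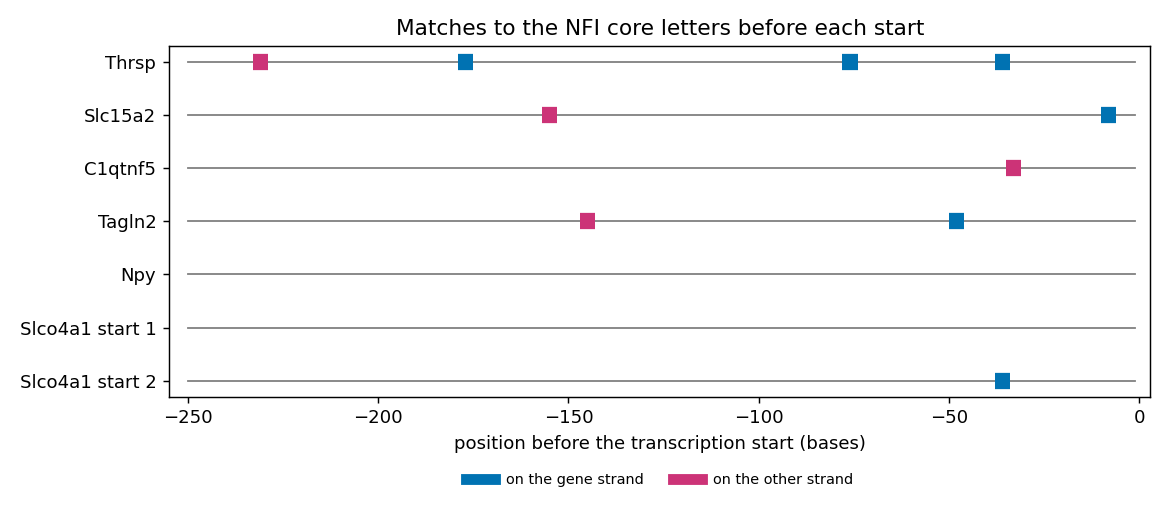
Positions of TTGGC (blue, on the gene's strand) and its reverse complement (pink) in the 250 bases before each RefSeq start, with the distance before the start on the x axis in bases. Thrsp has 4 matches and Npy has 0.

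Values below are normalised counts, read counts divided by a size factor per library. Differences are on the log2(normalised count + 1) scale with the standard error (SE) of a limma fit over all 66 libraries, and a gene is called where its adjusted p is under 0.05. A value of 10 in at least 2 libraries was needed for testing, which 15714 genes and all 6 members met. C1qtnf5 met it only through 4 WT D11 libraries, so its passing follows from where it is high. Of the 9 Thrsp libraries at 10 or more, 6 were WT D11.

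**Figure D2:**
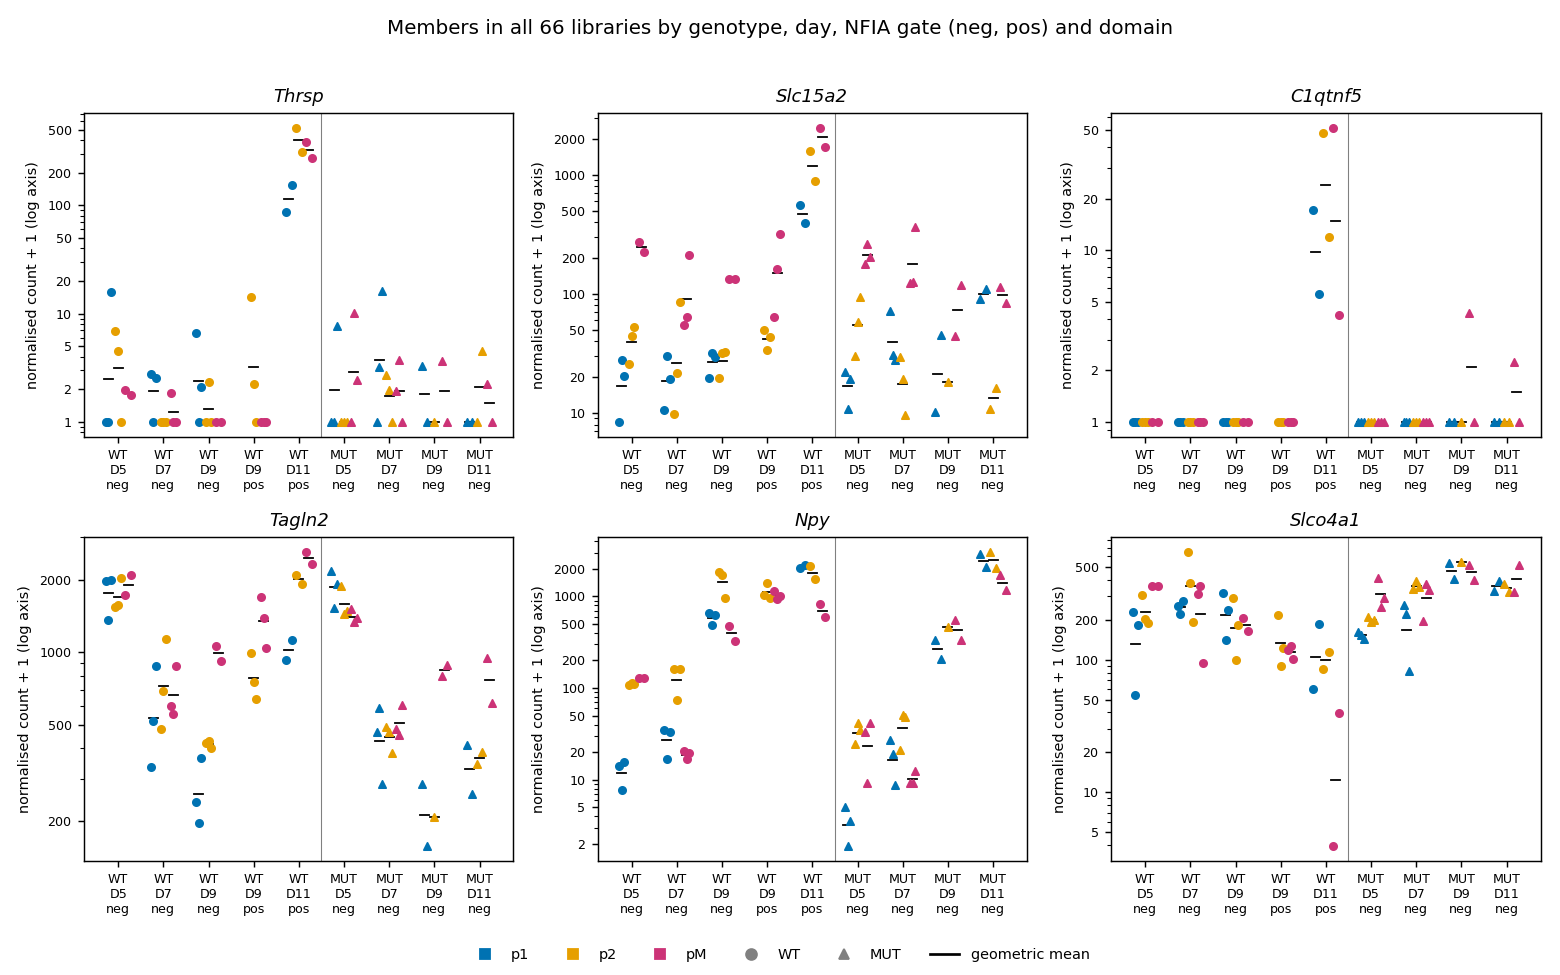
Normalised count plus 1 on a log axis for each gene in all 66 libraries, by genotype (circles WT, triangles MUT), day, NFIA gate and domain (colour), with the geometric mean as a bar. Thrsp, Slc15a2 and C1qtnf5 stand high in the 6 WT D11 libraries, while Slco4a1 is higher in MUT at D9 and D11.

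The overall picture at D11 divided the genes by direction. Slc15a2, C1qtnf5, Thrsp and Tagln2 were lower in MUT, with every MUT library under every WT library of the same domain in all 3 domains, which held for 2.66% of tested genes. Slco4a1 was higher in MUT in the same sense in all 3 domains (1.53% of tested genes), and Npy was higher in pM only. These are the values that chose the genes, so the shares are printed without a reading. The change from D5 to D11, taken as MUT minus WT and averaged over domains, was -6.95 ± 0.91 (SE) for Thrsp, -4.45 ± 0.60 for Slc15a2, -3.73 ± 0.51 for C1qtnf5 and -1.78 ± 0.27 for Tagln2. It was 2.62 ± 0.41 for Npy and 2.94 ± 0.51 for Slco4a1, against a median of -0.01 over all tested genes. Behind these numbers stand different histories. WT means of D11 were above those of D5 in every domain for Thrsp, Slc15a2, C1qtnf5 and Npy, and in p2 and pM for Tagln2. MUT means of D11 were below those of D5 for Tagln2, as were WT means for Slco4a1. Npy had a lower D5 level in MUT.

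**Figure D3:**
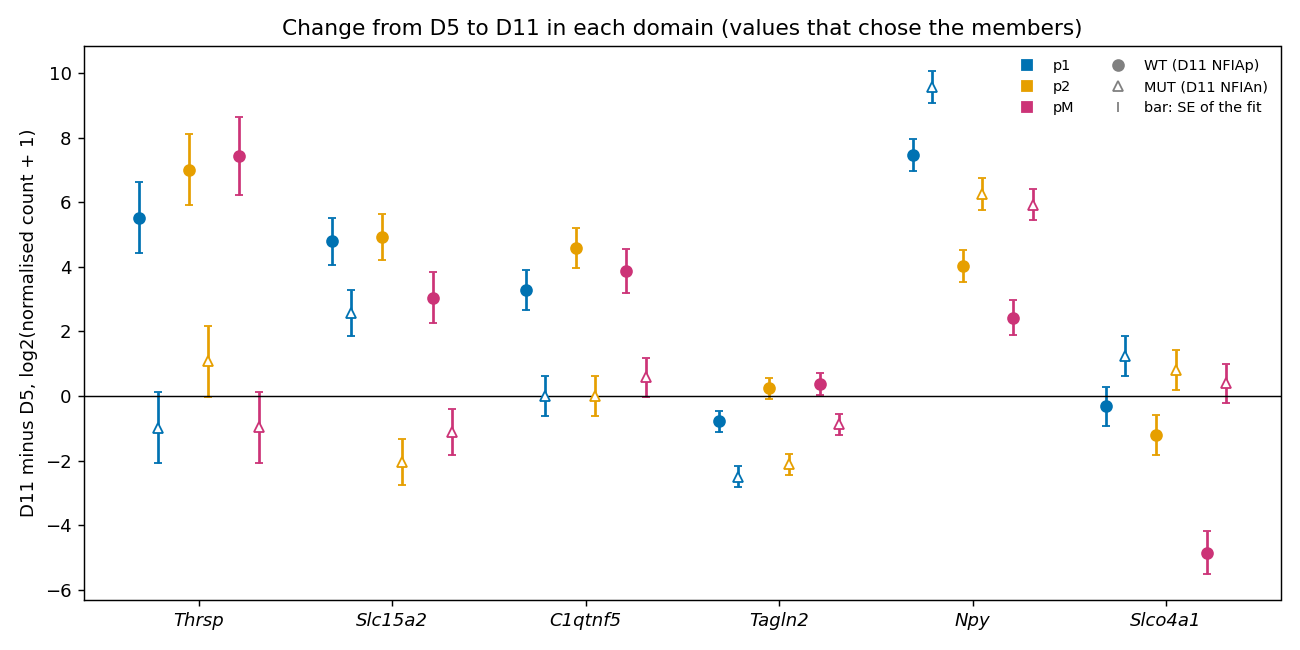
Change from D5 to D11 in log2(normalised count + 1) for each gene and domain (colour), in WT (filled circles) and MUT (open triangles), with SE bars. The Slc15a2 differences were 3.05 to 4.93 in WT and -2.05 to 2.58 in MUT, while those of Npy were above 0 in every domain of both genotypes.

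Slc15a2, the proton-coupled peptide transporter, had reads in every library and was highest in WT at D11. At D5 it was 224.9 and 272 in WT pM against 7.42 to 26.8 in p1 and 24.9 to 51.3 in p2, and MUT had the same order (178 to 260 in pM, 9.82 to 21.2 in p1, 29.3 to 92.5 in p2). The pM domain thus held the highest level at D5 in both genotypes, with no overlap with p1 or p2. At D11 the WT libraries read 561 and 389 in p1, 1595 and 891 in p2, and 2485 and 1700 in pM. The MUT libraries read 89.7 and 108 in p1, 9.80 and 15.3 in p2, and 114 and 83.3 in pM. WT and MUT did not overlap, and the p1, p2 and pM means stood 4.80-fold, 98.9-fold and 21.3-fold apart. The WT mean of D11 was 26.5-fold that of D5 in p1, 31.3-fold in p2 and 8.43-fold in pM, whereas the MUT mean was 6.02-fold higher in p1, 4.76-fold lower in p2 and 2.17-fold lower in pM.

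The high Slc15a2 levels of WT were not yet there at D9. In WT NFIAp cells of D9 it was 48.4, 32.5 and 42.3 in p2 and 62.8, 160 and 320.0 in pM, and the change from there to D11 was 4.84 ± 0.72 in p2 and 3.79 ± 0.72 in pM. WT NFIAn cells of D9 had 18.8 to 31.3 in p2 and about 133 in both pM libraries, overlapping with NFIAp in pM but not in p2. The gate difference at D9 was 0.38 ± 0.48 (6 against 5 libraries). Neither the genotype difference at D7 (0.50 ± 0.37, adjusted p = 0.604) nor that at D9 among NFIAn cells (-0.60 ± 0.47, adjusted p = 0.814) passed. Among WT domains at D7, pM stood 2.29 above p1, with a limma F test at adjusted p = 0.115, where 1.32% of tested genes were called. The test passed in 4 of 10 alternatives. They were a replicate block (adjusted p = 0.0492), a replicate block within day (0.0314), correlated libraries (0.00812) and DESeq2 (0.0202). In the other 6 it did not pass, with an adjusted p of up to 0.907. Without WT D7 p2 replicate 3, the p2 library at 83.8 where the others read 8.73 and 20.6, the same test gave an adjusted p of 0.0224 and p2 stood 0.35 under p1 instead of 0.50 above it. Of the 9 libraries left out in turn, this was the only 1 with a pass, and the adjusted p otherwise reached 0.714. Of the other Slc15 transporters, Slc15a3 and Slc15a4 were the ones tested besides Slc15a2 and neither passed any test between groups or days. Slc15a4, a lysosomal histidine and peptide transporter, was between 366 and 843 in WT and 336 and 927 in MUT at D11. Slc15a1, the intestinal paralog, reached at most 7.08 in any library, in WT D9 NFIAp.

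Slco4a1, the organic anion transporter, overlapped between the genotypes at D5 and D7 and did not at D9 among NFIAn cells or at D11. D5 values were 53.6 to 361 in WT and 141 to 414 in MUT, highest in pM in both, and D7 values were 93.7 to 651 and 80.4 to 388. At D9 the 5 MUT libraries read 536 and 402 in p1, 546 in p2, and 515 and 399.8 in pM. The 8 WT NFIAn libraries of D9 read 315, 140 and 235 in p1, 289, 99.0 and 181 in p2, and 203 and 164 in pM. Every MUT library was above every WT NFIAn library, which held for 0.363% of tested genes in this direction, and the ratio of means was 2.36. The limma difference was 1.35 ± 0.40 and did not pass after adjustment (adjusted p = 0.110), with 0 of the 6 genes called against 0.7% of tested genes. At unadjusted p under 0.05 there were 3 of 6 (Slco4a1, Npy and Tagln2), edgeR called 0 and DESeq2 called 2, Slco4a1 (adjusted p = 0.0256) and Npy (0.0322). Slco4a1 also passed with a replicate block within day (1.27, adjusted p = 0.0173). DESeq2 and this block were 2 of 10 alternatives, and Slco4a1 did not pass in the other 8.

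WT NFIAp cells had the lowest mean Slco4a1 of D9 (128), with 215, 88.9 and 122 in p2 and 117, 127 and 99.7 in pM. From D7 NFIAn to D9 NFIAp in WT, Slco4a1 fell by 1.19 on the log2 scale (SE 0.39, limma adjusted p = 0.0297, p2 and pM, 6 against 6 libraries). This and Npy made 2 of 6 genes called in that step, against 14.8% of tested genes. The NFIAp libraries of D9 belong to the gates that the rule names, so this p-value and this count are printed without a reading. With 1 library left out at a time the Slco4a1 call was lost for 7 of the 12 (D7 p2 replicates 1 and 2, D7 pM replicates 1 and 2, NFIAp p2 replicates 2 and 3, and NFIAp pM replicate 3), with an adjusted p of at most 0.107. It was also lost with only the compared groups (adjusted p = 0.0685), with correlated libraries (0.0900) and without the high-total libraries, where 1 D9 library per domain was left. The gate difference itself was -0.53 ± 0.41, and in pM every NFIAp library lay under both NFIAn libraries. The difference between the genotypes' D7 to D9 steps was 1.41 ± 0.51 (adjusted p = 0.650), where 0 of 6 genes were called against 0.00636% of tested genes. In that comparison 1 gene had an unadjusted p under 0.05, and edgeR and DESeq2 each called 0.

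By D11 Slco4a1 in WT was 59.3 and 184 in p1, 84.7 and 113 in p2, and 2.93 and 38.4 in pM. In MUT it was 330 and 390.0 in p1, 373 and 324 in p2, and 322 and 515 in pM. The MUT libraries were all higher, by 2.96-fold in p1, 3.52-fold in p2 and 20.2-fold in pM on the means. The 2 WT libraries of p1 and of pM lay far apart, and the fold without WT replicate 2 or without WT replicate 3 was 1.96 or 6.07 in p1 and 10.9 or 143 in pM. WT pM had the lowest values, and its D11 mean was 17.4-fold under that of D5 (9.36-fold without replicate 2, 123-fold without replicate 3), when it was the highest domain. Its change from D5 was -4.86 ± 0.67, against -1.21 ± 0.61 in p2 and -0.32 ± 0.61 in p1. MUT changed by 0.39 ± 0.61 to 1.24 ± 0.61 over the same days. Of 15 Slco genes listed, 4 besides Slco4a1 were tested and none of these passed any test between groups or days.

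C1qtnf5, the secreted C1q and TNF related protein, was almost confined to the 6 WT D11 libraries, with the count limits given above. There it was 16.2 and 4.53 in p1, 47.3 and 11.0 in p2, and 50.8 and 3.20 in pM, or 143 reads in all. Replicate 2 was higher than replicate 3 in each domain. No read was seen in the 31 WT libraries before D11, and a floor of 3 reads over those libraries put the WT D11 mean of 22.2 at least 226-fold higher. In MUT it had 6 reads in 29 libraries, 5 of them in D9 pM replicate 1 (3.31) and 1 in D11 pM replicate 2 (1.22). All WT D11 values were above all MUT D11 values, though the gap between 3.20 and 1.22 is a few reads. Differences between the WT domains were not detectable at this depth.

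The relatives of C1qtnf5 are secreted proteins with a C1q domain, among them the cerebellins of synapses. Of 18 listed genes, 17 were in the table and 14 besides C1qtnf5 were tested. In the step from D7 NFIAn to D9 NFIAp in WT, where 14.8% of all tested genes were called, 4 of the 14 rose and 2 fell, among them C1qtnf3 (4.54 ± 0.73, adjusted p = 9.464e-06) and C1ql2 (-2.86 ± 0.76, adjusted p = 0.00726), while in WT NFIAn (14.4% of all tested genes called) 2 rose and 1 fell. In MUT from D7 to D9 (9.71%), 2 rose (C1ql1 and Cbln4) and 0 fell. At D7, 1 was lower in MUT (C1ql3, -1.94 ± 0.53, adjusted p = 0.0403) and 0 higher, against 2.03% of all tested genes. At D9 between genotypes (0.7%) and between gates (0.204%) 0 passed.

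Npy, the neuropeptide Y precursor, rose in both genotypes and began lower in MUT. At D5 the WT libraries read 13.0, 6.70 and 14.7 in p1, 108, 114 and 110 in p2, and 127 and 129 in pM. The MUT libraries read 4.07, 0.892 and 2.50 in p1, 23.4, 40.1 and 33.6 in p2, and 32.1, 8.20 and 40.1 in pM. MUT was lower in all 3 domains without overlap (0.955% of tested genes), by 2.04 on the log2 scale on average (SE 0.26). At D11 WT read 2016 and 2185 in p1, 2139 and 1530 in p2, and 819 and 592 in pM. MUT read 2905 and 2087 in p1, 3072 and 2033 in p2, and 1694 and 1184 in pM, overlapping with WT in p1 and p2 and above it in pM. The D11 difference was 0.57 ± 0.31, so the larger change in MUT came mostly from its lower D5 level. Those D5 and D11 values belong to the contrast that chose the gene.

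At D7, which the choice did not use, Npy was 34.3, 15.9 and 32.3 in WT p1, 159, 72.3 and 160 in p2, and 19.6, 15.7 and 18.4 in pM. MUT had 25.9, 17.9 and 7.66 in p1, 19.9, 49.4 and 47.1 in p2, and 8.28, 8.24 and 11.3 in pM. MUT was lower without overlap in p2 and pM and overlapped in p1. The mean over domains was lower by 1.12 (SE 0.25, limma adjusted p = 0.00833, 9 against 9 libraries), a 2.70-fold ratio of means. Npy was the only 1 of 6 genes called, against 2.03% of tested genes, and edgeR and DESeq2 also called it. The call held without any single library (adjusted p 0.00436 to 0.0352), but was lost when the fit used only the D7 libraries (adjusted p = 0.205), when libraries sharing genotype, day and number were allowed to correlate (0.282) and without the high-total libraries (0.163). The size of the difference was -1.13 to -0.89 over all the alternatives.

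The domains of WT at D7 also differed in Npy, with p2 2.19 above p1 and pM 0.53 below p1 (limma F test, adjusted p = 0.000111, against 1.32% of tested genes called). At D5 the order was different, with pM as high as p2. The F test was lost when only the 9 WT D7 libraries were fitted (adjusted p = 0.219). The steps from D7 to D9 were the largest tested change of any of the 6 genes. Npy rose 15.2-fold in WT NFIAn (4.13 ± 0.26, limma adjusted p = 1.304e-16) and 17.5-fold in MUT (4.36 ± 0.31, adjusted p = 1.156e-14). WT D9 NFIAp was 4.48 ± 0.31 above WT D7 (limma adjusted p = 2.091e-15). The WT p2 and pM libraries of D9 are those of the gates that the rule names. The p-value of the step to NFIAp is therefore printed without a reading, and that in WT NFIAn is not independent of the rule. Npy was higher in every domain without overlap in all 3 steps. Npy was the only 1 of 6 genes called in the first 2 of these steps, where 14.4% and 9.71% of tested genes were called. In WT NFIAn, edgeR and DESeq2 also called Tagln2 (-0.48 with each, adjusted p = 0.0432 and 0.0397, against -0.42 ± 0.17 and adjusted p = 0.0925 with limma). The rise in MUT differed from that in WT NFIAn by 0.23 ± 0.41 (adjusted p = 0.952).

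The D9 gates are given for Npy as a description. NFIAp cells had 1045, 1399 and 958 in p2, within the 949.5 to 1856 of NFIAn p2 cells, and 1150, 934 and 1010 in pM, above the 476 and 329 of NFIAn pM cells. The gate difference was -0.37 ± 0.44 in p2 and 1.38 ± 0.49 in pM, and the difference between them was 1.75 ± 0.66. Among the 8 Npy peptide and receptor genes 3 besides Npy were tested and none passed a test between groups or days.

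Thrsp, the lipogenic nuclear protein, was near 0 before D11 and then high in WT. The WT D11 libraries read 85.2 and 154 in p1, 522 and 313 in p2, and 381 and 274 in pM. The MUT D11 libraries read 0 and 0 in p1, 0 and 3.49 in p2, and 1.22 and 0 in pM, or 6 reads in all against 1965 in WT. The WT mean of 288 was 367-fold above the MUT mean of 0.784, or 1181-fold without MUT p2 replicate 3, which held 5 of the 6 reads. Within WT, p1 was the lowest domain without overlap. In the 60 libraries other than WT D11 the highest value was 15.3 (MUT D7 p1 replicate 3), and 34 were at 0. The 31 WT libraries before D11 held 54 reads in all, 13 of them with any. At D9 the NFIAp cells of WT had 13.3, 1.25 and 0 in p2 and 0 in all 3 pM libraries, so the rise to D11 (6.99 ± 1.10 in p2 and 8.34 ± 1.10 in pM) came after that day. The gate difference at D9 was 0.63 ± 0.74, with at most 1 read in all but 1 of these libraries, so a difference was not detectable at this depth.

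Of 13 other genes listed for fatty acid synthesis and its control, all were tested. Between genotypes at D7, 1 was lower in MUT (Me1, malic enzyme, -1.05 ± 0.22, adjusted p = 0.00352) and 0 higher, against 2.03% of all tested genes. At D9 none passed between genotypes (0.7%) or gates (0.204%). From D7 to D9, 1 of the 13 rose and 2 fell in WT NFIAn (14.4% of all tested genes called), 1 rose and 3 fell in MUT (9.71%), and 1 rose and 1 fell in WT to NFIAp (14.8%). The gene that rose in all 3 steps was Thra, a thyroid hormone receptor (0.74 ± 0.22, 0.83 ± 0.26 and 1.39 ± 0.26).

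Tagln2, the actin-bundling transgelin, was lower at D7 than at D5 in both genotypes, and by D11 its mean was above that of D5 in WT p2 and pM. D5 values were 1365 to 2092 in WT and 1328 to 2180 in MUT. At D7 they were 333 to 1129 in WT and 283 to 605 in MUT. At D11 the WT libraries read 929 and 1125 in p1, 2097 and 1922 in p2, and 2608 and 2325 in pM. The MUT libraries read 414 and 258 in p1, 344 and 387 in p2, and 947 and 616 in pM. Within each domain the WT values were higher without overlap, by 3.06-fold in p1, 5.50-fold in p2 and 3.16-fold in pM on the means. The change from D5 was -0.05 ± 0.19 in WT and -1.83 ± 0.19 in MUT.

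At D9 Tagln2 was highest in pM within each gate and genotype. WT NFIAn read 238, 196 and 364 in p1, 419, 427 and 402 in p2, and 1064 and 919 in pM. WT NFIAp read 994, 756 and 643 in p2 and 1687, 1390 and 1037 in pM. MUT read 284 and 157 in p1, 207 in p2 and 797 and 885 in pM. NFIAp was above NFIAn without overlap in p2 and overlapped in pM, and the gate difference was 0.68 ± 0.22. Since the rule names this contrast, the counts over the members are printed without a reading. None of the 6 genes was called by limma between gates, against 0.204% of tested genes, and 0 by edgeR and by DESeq2. The same counts held in p2 alone (against 0.248% of tested genes called), in pM alone (0.0191%) and for the difference between those (0.00636%). Between genotypes the Tagln2 difference was -0.47 ± 0.17 at D7 (limma adjusted p = 0.147, and 0.0299 with a replicate block within day) and -0.51 ± 0.21 at D9 (adjusted p = 0.382).

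Calponins are actin-binding relatives of the transgelins. Of the 5 other transgelin and calponin genes, all tested, 1 was higher in MUT at D7 and at D9 and 0 lower, and it was Cnn2 (calponin-2, 0.70 ± 0.16, adjusted p = 0.00977, and 1.37 ± 0.20, adjusted p = 4.436e-05), where 2.03% and 0.7% of all tested genes were called. From D7 to D9 in WT NFIAn (14.4% of all tested genes called) 2 of the 5 rose and 2 fell, with Tagln3, a neuronal transgelin, at 0.74 ± 0.16 and Cnn1 at -3.19 ± 0.70. In MUT (9.71%) 1 rose, Cnn3 at 0.45 ± 0.14, and 0 fell, and in WT to NFIAp (14.8%) limma called 0.

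**Figure D4:**
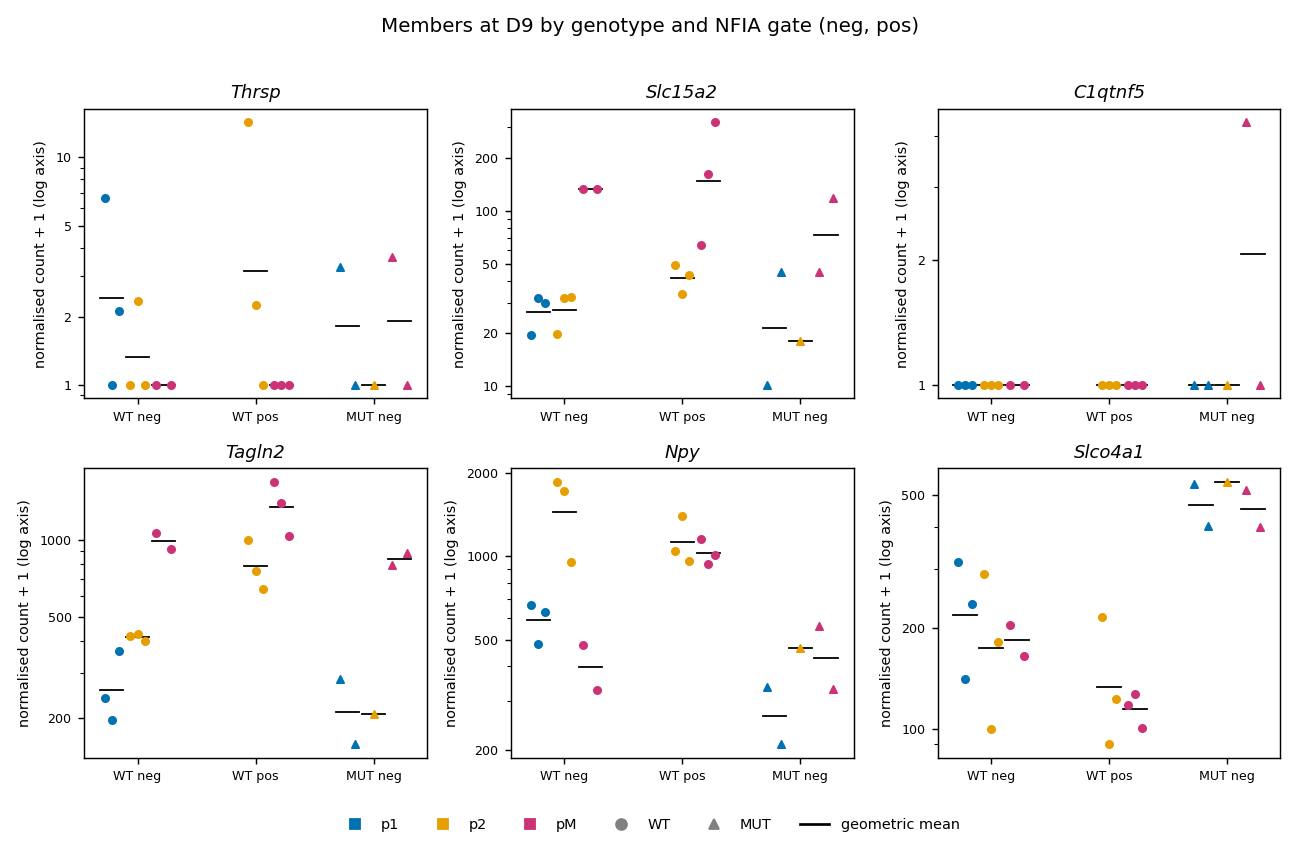
Normalised count plus 1 on a log axis at D9 by genotype and NFIA gate for each gene, with domain in colour and the geometric mean as a bar. Slco4a1 is 99.0 to 315 in WT NFIAn, 88.9 to 215 in WT NFIAp and 399.8 to 546 in MUT, and C1qtnf5 is at 0 in all but 1 library.

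Per kilobase of exon, the level at WT D11 ran from Npy (2733 normalised counts per kb) through Tagln2 (881), Slc15a2 (173), Thrsp (132) and Slco4a1 (16.7) to C1qtnf5 (13.9). At MUT D11 it ran from Npy (3820) through Tagln2 (237), Slco4a1 (78.3), Slc15a2 (9.51) and Thrsp (0.358) to C1qtnf5 (0.128).

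The nearest annotated genes on each side were read for the same difference of changes. Igsf9, 1169 bases from Tagln2, had an opposite sign, 1.24 ± 0.37 against -1.78 ± 0.27 for Tagln2. Ndufc2, 5136 bases from Thrsp, had -0.74 ± 0.54 against -6.95 ± 0.91. Kctd14, on the other side of Thrsp, averaged 5.56 at WT D11 and 0 at MUT D11, too low to be tested. The tested neighbours of the other 4 genes had differences of changes from -0.79 ± 0.81 (Stk31) to 0.82 ± 0.88 (Eaf2). These use the contrast that chose the members and carry no test.

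Over the 26 group means, which share the libraries and the normalisation, the genes most like Thrsp were C1qtnf5 (Pearson r = 0.954), Dhrs2 (0.936) and Gpr179 (0.917), and for C1qtnf5 they were Thrsp, Dhrs2 (0.931) and Serpina3n (0.923). Thrsp and C1qtnf5 are near 0 outside the 3 WT D11 groups, which set these values. Slc15a2 was most like Apcdd1 (0.824), Lrp8 (0.798) and Mmp15 (0.792), and Tagln2 most like Irf2bp2 (0.819), Fosb (0.807) and Kcnj12 (0.805). Npy was most like Ctsk (0.933), Pnoc (0.913) and Pcsk1n (0.912), 3 genes whose means were also higher at D11 than at D5 in both genotypes, from 30.8 to 482 (Ctsk), 5.99 to 187 (Pnoc) and 1.09 to 237 (Pcsk1n) on the MUT means of D5 and D11. Slco4a1 was most like Rai14 (0.778), Pkm (0.777) and Acer2 (0.776), and against Thrsp it ran at -0.716.

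Marker lists were read beside these results at D11 over the 3 domains together, and the WT and MUT ranges overlapped for each list given here. The astroglial sums overlapped only between 74973 and 82634. The summed level of 12 astroglial genes was 74973 to 190690 in WT and 25493 to 82634 in MUT, with 11 and 10 of the genes at 10 or more in some library, Aqp4 at 0 in all MUT libraries, and Gfap at most 9.05 in WT and 2.99 in MUT. The sum of 9 neural crest and Schwann genes was 12169 to 32068 in WT and 7683 to 17238 in MUT, and of 11 mesenchyme and smooth muscle genes 1510 to 8495 and 1205 to 5762. Postmitotic neuron markers (12 genes) were at 23318 to 43873 and 29684 to 36686 in the same order. The part of these cell types in the D11 differences was not tested. Microglia and blood markers summed to at most 28.1 in WT and 20.9 in MUT at D11, with Aif1, C1qb and Ptprc at 0 in both.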

How the data were processed

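RNA from sorted, fixed cells was measured in 66 libraries (8.74 to 30.8 M reads). The authors deposited a table of gene counts divided by a size factor per library, a normalised signal in which 1 read has the same worth for every gene of a library. Per the submitters' processing notes the build was mm10 and DESeq2 was used. The aligner, the annotation and the versions are not given in the sources used here. Whole reads were recovered for 100% of values (tolerance 0.01).

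Values were analysed as log2(normalised count + 1) with limma 3.58.1 (trend, R 4.3.3), with 1 mean per group of genotype, day, domain and gate, over the 15714 genes that reached 10 in 2 or more libraries. Contrasts average over domains, p-values are two-sided and were adjusted by Benjamini-Hochberg over all tested genes, and the threshold was 0.05. The fit was tested on simulated data for the D7 genotype comparison only. Libraries were drawn there independently around their group means, so effects shared between libraries were not covered. Count tests on the recovered reads used edgeR 4.0.16 and DESeq2 1.42.0. Other alternatives were a pseudocount of 8, no filter, TMM scaling, only the compared groups, replicate blocks, correlated libraries, leaving out the 18 high-total libraries, and leaving out each library. Of 55 replicate pairs none agreed within sampling noise (lowest chi-square per degree of freedom 26.7).

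Replicate numbers in the labels may pair libraries. The check correlated the deviations of libraries with the same number from their group means. All pairs exceeded 0.1 only for the D7 to D9 step in MUT (0.179 to 0.275 over 4 pairs), where the block changed no call of the 6 genes. Between genotypes 8 of 9 pairs exceeded 0.1 at D7 (0.078 to 0.401) and 3 of 4 at D9. There a replicate block within day made Tagln2 pass at D7 and Slco4a1 pass at D9. Positions are from GENCODE M21 (GRCm38), which held 95.8% of the symbols, and promoters from RefSeq.

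The 6 genes and the gene lists were chosen with earlier results of these data known. Named beside them are the 3 tested genes with the highest correlation to each over the 26 group means (gene models passed over), the nearest annotated genes, and family genes that passed a test or are paralogs.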

Additional observations from a re-analysis of the deposited data

How the results depend on the processing

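Over the alternatives that leave out no single library, 651 of the values for the 6 genes kept their side of the threshold (or, untested, moved by less than the spread). Another 17 newly passed, 7 no longer passed, 5 moved and 0 reversed. For tested values a reversal was counted only where either fit passed, so values that never passed could change sign. The Slc15a2 gate difference in pM, 0.15 in the main fit, ranged from -1.07 to 0.45. The -1.07 was without high-total libraries, where 1 NFIAp library (62.8) stood against 1 NFIAn library (about 133). The cause of the other changes was not tested. Npy at D7 no longer passed with only the compared groups (-1.12, adjusted p = 0.205), correlated libraries (-1.12, 0.282) and without high-total libraries (-0.95, 0.163). Slco4a1 from D7 to NFIAp D9 no longer passed in the same alternatives. It was at -1.19 (adjusted p = 0.0685), -1.19 (0.0900) and, on 1 D9 library per domain, -1.36. Npy between WT domains at D7 no longer passed with only the compared groups (p2 minus p1 2.19, 0.219). Tagln2 newly passed from D7 to NFIAp D9 with a pseudocount of 8 (0.56), a replicate block (0.57) and DESeq2 (0.54), and in the WT NFIAn step with edgeR and DESeq2 (-0.48 each). The step to NFIAp without high-total libraries (1.16) is also counted among the 17, but rests on 1 D9 library per domain. It also passed at D7 between genotypes with a replicate block within day (-0.47). Its gate differences, which the rule names, are counted among the 17 but are given as a description only. They were 0.70 with a replicate block within day, 0.69 with correlated libraries, and 0.91 in p2 with correlated libraries. At D9 between genotypes Slco4a1 passed with a replicate block within day (1.27) and with DESeq2 (1.29), and Npy with DESeq2 (-0.89). Slc15a2 between WT domains passed with a replicate block, a replicate block within day and correlated libraries (p2 minus p1 0.50 each) and with DESeq2 (0.95). The MUT minus WT change from D5 to D11 moved to -4.76 (Thrsp), -1.57 (C1qtnf5) and 2.09 (Npy) with a pseudocount of 8, and for C1qtnf5 to -6.53 with edgeR and -6.39 with DESeq2.

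Counts of called genes moved by over 1.5 times as follows. Between gates (32 in the main analysis) they were 20 with TMM, 1 with only the compared groups, 64 with a replicate block, 543 with a block within day, 454 with correlated libraries, 8 without high-total libraries, 13 with edgeR and 132 with DESeq2. Between gates in p2 (39) they were 60 with a pseudocount of 8, and in the order of the last 7 settings 3, 61, 348, 345, 2, 12 and 84. Between gates in pM (3) they were 22 without a filter, 0 with only the compared groups, 30 with a block within day, 23 with correlated libraries, 0 with edgeR and 11 with DESeq2. For pM against p2 (1) they were 0 with only the compared groups, without high-total libraries and with edgeR, 15 with a block within day and with correlated libraries, and 14 with DESeq2. Between genotypes at D7 (319) they were 104 with only the compared groups, 2275 with a block within day, 37 with correlated libraries, 198 without high-total libraries and 495 with DESeq2. At D9 (110) they were 168 without a filter, 17 with only the compared groups, 784 with a block within day, 28 with correlated libraries, 17 without high-total libraries and 218 with DESeq2. The WT NFIAn step (2261) gave 1333 with only the compared groups and 872 with correlated libraries, the MUT step (1526) 454 with correlated libraries and 341 without high-total libraries, and the step to NFIAp (2331) 1389 with correlated libraries. The difference of steps (1) gave 24 without a filter, 3 with a replicate block, 484 with a block within day, 15 with DESeq2, and 0 with only the compared groups, correlated libraries or without high-total libraries. Domains at D7 (208) gave 25 with only the compared groups, 620 with a block within day, 683 with correlated libraries and 85 without high-total libraries.

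With each library left out in turn the counts were 6 to 73 between gates, 12 to 96 in p2, 1 to 21 in pM, 0 to 11 for pM against p2, 210 to 366 between genotypes at D7, 36 to 117 at D9, 719 to 1637 in the MUT step, 0 to 5 for the difference of steps and 125 to 215 between domains. The lowest D9 and MUT step counts were without the sole MUT D9 p2 library. Slco4a1 in the step to NFIAp ranged from -1.50 to -0.98, Tagln2 there from 0.42 to 0.73 and in the WT NFIAn step from -0.53 to -0.30, Slc15a2 between domains from -0.35 to 1.21, and the C1qtnf5 difference of changes from -4.33 to -3.12.

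Same-numbered libraries correlated by 0.078 to 0.401 at D7 (8 of 9 pairs over 0.1), 0.067 to 0.273 at D9 between genotypes (3 of 4), 0.045 to 0.242 between gates (3 of 5), -0.140 to 0.217 in the WT NFIAn step (5 of 8) and -0.121 to 0.153 in the step to NFIAp (3 of 6). Not all pairs were over 0.1, so the numbers were not taken to pair them. Libraries sharing genotype, day and number had a consensus correlation of 0.375, and the main fit treated them as independent. The replicate block within day was not run for the 3 D7 to D9 steps, since day and block cannot be separated there. Without high-total libraries MUT D9 p2 is lost and every other D9 group keeps 1 library. Values there that use MUT D9 rest on p1 and pM. Calls and counts of that setting that use D9 take their spread from other groups. Depth limits C1qtnf5 everywhere and Thrsp before D11.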
